A study of Mus musculus with 6 samples.

Results

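The genes described here encode the proton pump of the lysosome and the nutrient-sensing machinery that sits beside it on the lysosomal membrane. They are 41 genes of the 27263 listed in the data: 16 genes of the vacuolar proton pump (V-ATPase), and 25 genes of Ragulator, the Rag GTPases and their regulators, mTORC1, the lysosomal calcium channel and the TFEB family of transcription factors. They were taken by symbol and found through Ensembl identifiers, and the rule uses names only, not measured values. The genes were, however, chosen with earlier results of these data known.

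RNA sequencing was done on primary bone marrow stromal cells of C57BL/6 mice, sorted from tibia and femur as Sca-1+ CD29+ CD45− CD11b− and grown in α-MEM with serum. The treated group received rGCA at 50 nM for 3 days, and the control group received PBS, the buffer, for the same time. From knowledge of the study and not from its labels, GCA is taken here as grancalcin, a protein that binds calcium, and rGCA as its recombinant form. Each group had 3 libraries, numbered 1 to 3, and both groups carried the same strain and no genetic change named in the labels. Age, sex and the number of animals are not in the labels, and nothing there ties the libraries to different animals or cultures. The p-values therefore speak only of the spread among these libraries, which may be technical.

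The V-ATPase is a rotary pump that spends ATP to move protons into the lysosome. Its V1 sector in the cytosol splits ATP and turns a shaft, and its V0 sector in the membrane carries the protons. The same membrane holds Ragulator, a scaffold for the Rag GTPases, which recruit the kinase complex mTORC1 when amino acids are plentiful so that Rheb can activate it. TFEB, TFE3 and MITF are held in the cytosol by mTORC1 and, once released, turn on lysosomal genes, many of them pump subunits, through E-box sites in promoters. Macrophages and osteoclasts are rich in lysosomes and in this pump.

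Values were read as FPKM, fragments per exon length and library size, a level per length that allows genes to be set side by side. Library totals in the FPKM denominators, estimated from the values, ran from 17543509 to 18645932 fragments, so depth differed little. Fragments recovered from the values and exon lengths summed to 18929244 to 19943239, above that total in every library. The reason was not tested. The test was limma on log2(FPKM + 1) over the 11984 genes that averaged 1 FPKM or more, with Benjamini-Hochberg adjustment over all of them and a threshold of 0.05. Log2 fold changes are GCA minus PBS on that scale, which understates changes of low genes. Although the sort removed CD45+ and CD11b+ cells, macrophage transcripts were abundant in every library. The 16 macrophage markers summed to 18606 to 20762 FPKM in PBS and 16198 to 17527 in GCA. Lyz2 was the largest part and went from a mean of 13518 to 8879 FPKM. The sum of the other markers was higher on average in GCA than in PBS. Of these 16 genes 9 rose, 1 fell (Lyz2) and 6 did not pass, and none was at 0. Over all 11984 tested genes 11.5% were higher and 6.43% lower. The 14 stromal markers summed to 2891 to 3138 FPKM in PBS and 2518 to 2711 in GCA, with 3 of 12 tested lower and none higher. The neutrophil, endothelial, B cell, T cell and erythroid markers that were listed were scarce: the highest summed level of any of these lists in a library was 5.91 FPKM. The data listed only 4 of 8 neutrophil, 5 of 6 B cell, 2 of 6 T cell and 3 of 5 erythroid markers, so these sums are partial. The T cell sum, of Cd4 and Lck only, went from 1.58 to 1.81 FPKM in PBS to 3.92 to 4.70 in GCA, with Cd4 higher. In such a mixture, a change in the number of cells of a type and a change in RNA per cell cannot be told apart.

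Promoter sequence is shown first, because the E-box is the site through which the TFEB family is known to act on lysosomal genes. RefSeq promoter windows (GRCm38.p6, from 250 bases before to 50 after each start site) were at hand for 36 of the 41 genes. The core E-box CACGTG, which reads the same on both strands, was in the windows of 11 of these 36 genes (30.6%), against 8.09% of all genes with a window, 12.0% of those tested here and 7.15% of all 32851 windows. All 11 also held the 7-letter form TCACGTG on one strand or the other (4.29% of all genes, 7.22% of those tested, 3.77% of windows). The 8-letter form TCACGTGA, which contains both shorter forms, was in the windows of 4 of them, Mcoln1, Atp6v0d1, Atp6v1a and Atp6v0e (11.1% of 36, against 1.12% of all genes, 2.35% of those tested and 0.974% of windows). The 10-letter form that adds G before and C after these letters was in 0 of the 36, against 0.37% of all genes and 0.874% of those tested. At so low a share its absence from 36 genes says little. Stretches around the E-box are given below for 3 genes that were higher with GCA (Mcoln1, Lamtor1 and Atp6v0d1) and 3 that did not pass the test (Atp6v1a, Rragc and Atp6v0e). Capitals mark CACGTG with its flanking T or A where present. Each reads 5′ to 3′ along the gene's strand, in GRCm38.p6.
Mcoln1, chr8:3500426-3500501, plus strand: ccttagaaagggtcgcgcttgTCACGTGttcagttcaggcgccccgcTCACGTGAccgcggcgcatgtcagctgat
Lamtor1, chr7:101905747-101905796, plus strand: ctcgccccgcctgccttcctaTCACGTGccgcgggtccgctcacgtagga
Atp6v0d1, chr8:105566050-105566079, minus strand: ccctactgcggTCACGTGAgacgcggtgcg
Atp6v1a, chr16:44139363-44139412, minus strand: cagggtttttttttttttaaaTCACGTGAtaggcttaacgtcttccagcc
Rragc, chr4:123917299-123917348, plus strand: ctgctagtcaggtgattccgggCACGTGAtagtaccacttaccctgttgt
Atp6v0e, chr17:26676387-26676416, plus strand: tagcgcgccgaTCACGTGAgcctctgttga

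In the Mcoln1 stretch 2 E-boxes lie 71 and 45 bases before the start site, in the Lamtor1 stretch 1 lies 68 bases before it, and in Atp6v0d1 the E-box spans the start site. The core E-box was in the windows of 3 of the 9 genes past the threshold that had one, and of 8 of the 27 others. A match is a description of the letters, not of a bound site.

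With GCA, 9 of the 40 tested genes of this group rose and 1 fell. The 9 were the pump subunits Atp6v0a1, Atp6v0d1, Atp6v1g1 and Atp6v1f, the pump accessory subunit Atp6ap2, the Ragulator anchor Lamtor1, the GTPase Rragd, the calcium channel Mcoln1 and the mTORC1 inhibitor Ddit4. The 1 that fell was Mitf, a transcription factor of the TFEB family. Higher calls made up 22.5% of the tested genes of the group, beside 11.5% of all 11984 genes tested, and lower calls 2.5%, beside 6.43%. All 3 GCA values lay above all 3 PBS values in 18 of the 40 (45.0%, beside 21.6% of all genes) and below them in 3 (7.5%, beside 16.8%). The median log2 fold change of the 40 was 0.07, beside 0.0056 over all genes. The changes were small: the called genes moved by 0.16 to 0.66 log2 units. The remaining gene, Rragb, stood at 0.098 to 0.267 FPKM, below the filter, and was not tested.

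**Figure D1:**
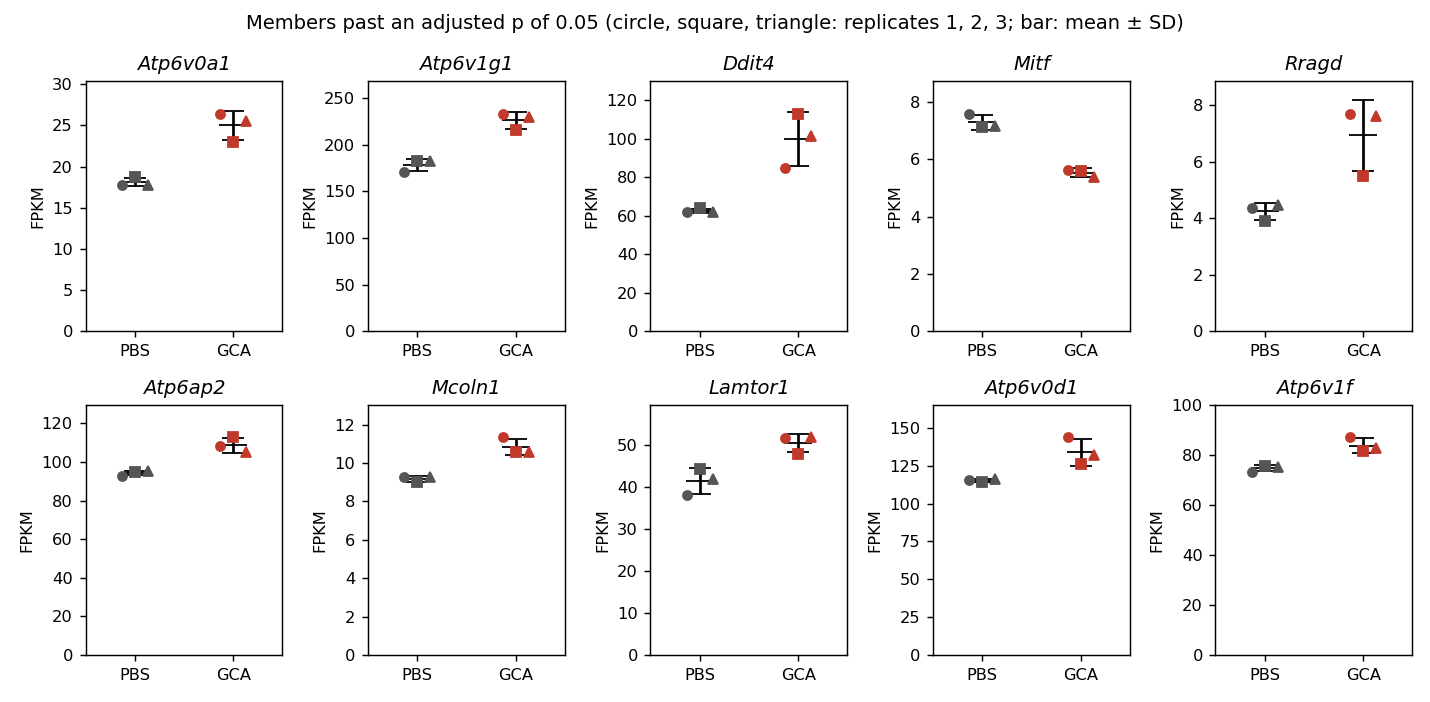
FPKM (linear axes from 0) of the 10 genes past the threshold in each PBS and GCA library, with the group mean and SD. In each panel the 3 GCA points lie on one side of the 3 PBS points, below them for Mitf and above them for the other 9.

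**Figure D2:**
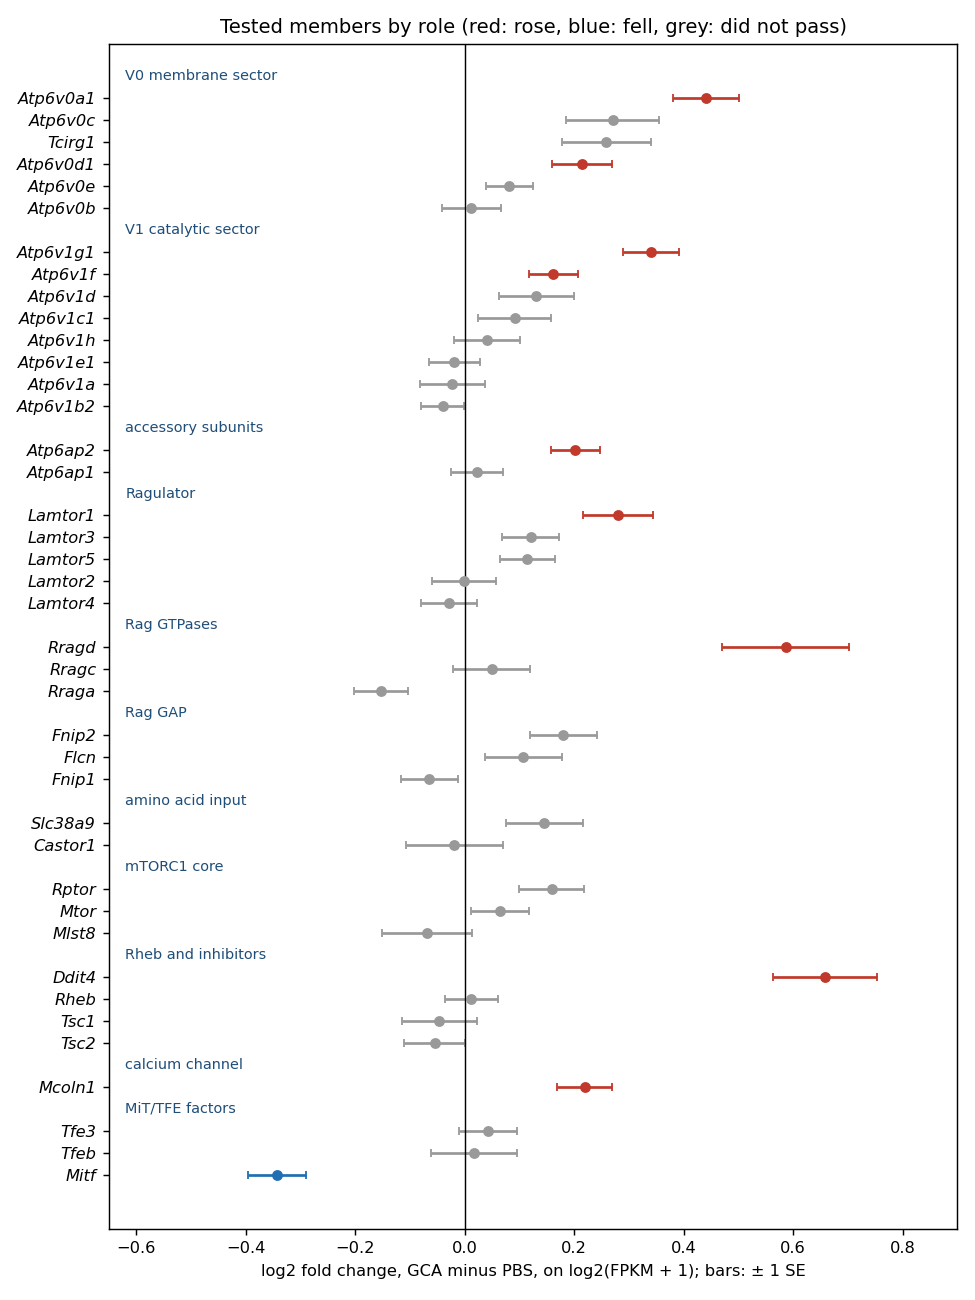
Log2 fold change (GCA minus PBS, on log2(FPKM + 1)) with 1 SE for the 40 tested genes, grouped by role. Ddit4 at 0.66 and Rragd at 0.59 lie farthest to the right and Mitf at −0.34 farthest to the left, while Atp6v1a, Atp6v1b2 and Atp6v1e1 lie near 0.

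The membrane sector of the pump held 2 genes that rose among its 6. Atp6v0a1 (ENSMUSG00000019302, chromosome 11, 101009452 to 101063719, GRCm38) encodes a form of the large subunit a, which lines the proton path. It stood at 17.8, 18.7 and 17.8 FPKM in PBS replicates 1 to 3 and at 26.4, 23.0 and 25.6 in GCA replicates 1 to 3. All 3 treated libraries were above all controls, and the group means of 18.1 ± 0.53 and 24.98 ± 1.80 FPKM (SD, n = 3 each) gave a ratio of 1.38. The log2 fold change was 0.44 (SE 0.060, adjusted p = 0.00265, limma). Atp6v0d1 (ENSMUSG00000013160, chromosome 8, 105524465 to 105566047), whose product joins the turning ring to the central shaft, was at 115.6, 114.1 and 116.0 FPKM in PBS and 143.8, 126.1 and 132.2 in GCA. The controls lay within 1.94 FPKM of each other and the treated libraries spread over 17.7. The log2 fold change was 0.21 (SE 0.055, adjusted p = 0.0318, limma). That call was lost when any 1 library other than GCA replicate 2 was left out (adjusted p = 0.0684 to 0.0997).

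The other membrane-sector genes did not pass. Tcirg1, which encodes the form of subunit a used by osteoclasts and abundant in macrophages, was at 96.3, 88.3 and 87.8 FPKM in PBS and 122.2, 97.8 and 107.5 in GCA. The groups did not overlap, with a gap of 1.51 FPKM between the highest control and GCA replicate 2 (log2 fold change 0.26, SE 0.082, adjusted p = 0.0646, limma). With the replicate number as a block the adjusted p was 0.0206. Atp6v0c, the proton-carrying ring subunit, was at 7.86 to 8.40 FPKM in PBS and 11.2, 8.62 and 10.1 in GCA, again without overlap (log2 fold change 0.27, SE 0.085, adjusted p = 0.0632). It has a near-identical copy, Atp6v0c-ps2, with 99.8% identity over 465 bases and a mean of 4.47 FPKM, so its level is uncertain. Atp6v0e stood at 54.4 to 57.4 FPKM in PBS and 58.9 to 60.1 in GCA, and Atp6v0b, another ring subunit, at 53.4 to 54.6 and 51.2 to 58.0.

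The catalytic sector held 2 genes that rose among its 8. Atp6v1g1 (ENSMUSG00000039105, chromosome 4, 63544772 to 63550750) encodes a part of the stalks that brace the pump against its own rotation, and was the most abundant pump transcript. It stood at 171.3, 182.3 and 182.5 FPKM in PBS and 233.5, 216.0 and 230.0 in GCA. The lowest treated library stood clear of the highest control, and the log2 fold change was 0.34 (SE 0.051, adjusted p = 0.00384, limma). Atp6v1f (ENSMUSG00000004285, chromosome 6, 29467718 to 29470512), a part of the shaft, was at 73.3, 75.6 and 75.2 FPKM in PBS and 87.0, 81.6 and 82.6 in GCA. The groups did not overlap, and the log2 fold change was 0.16 (SE 0.045, adjusted p = 0.0412). Its call was among the most fragile: the adjusted p was 0.0669 after quantile normalization, 0.0577 after median centring, 0.071 with the replicate block and 0.0788 to 0.14 when any 1 library other than GCA replicate 2 was left out.

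The subunits that form the ATP-splitting head did not pass. Atp6v1a, the catalytic subunit, was at 79.0 to 84.0 FPKM in PBS and 74.8 to 85.7 in GCA, and Atp6v1b2, its partner in the head, at 76.2 to 77.5 and 74.1 to 75.1. The Atp6v1b2 values were lower in all 3 treated libraries, by 0.04 log2 units (SE 0.040, adjusted p = 0.52). Atp6v1e1, the partner of Atp6v1g1 in the stalks, was at 50.9 to 54.2 and 51.3 to 53.8 FPKM. Atp6v1c1, Atp6v1d and Atp6v1h had log2 fold changes of 0.09, 0.13 and 0.04, none past the threshold. The median log2 fold change was 0.24 over the 6 membrane-sector genes and 0.07 over the 8 catalytic-sector genes. The catalytic-sector median was 0.017 without GCA replicate 1 and 0.12 without GCA replicate 2, and the membrane-sector median 0.17 and 0.30. Whether the 2 sectors differ was not tested.

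**Figure D3:**
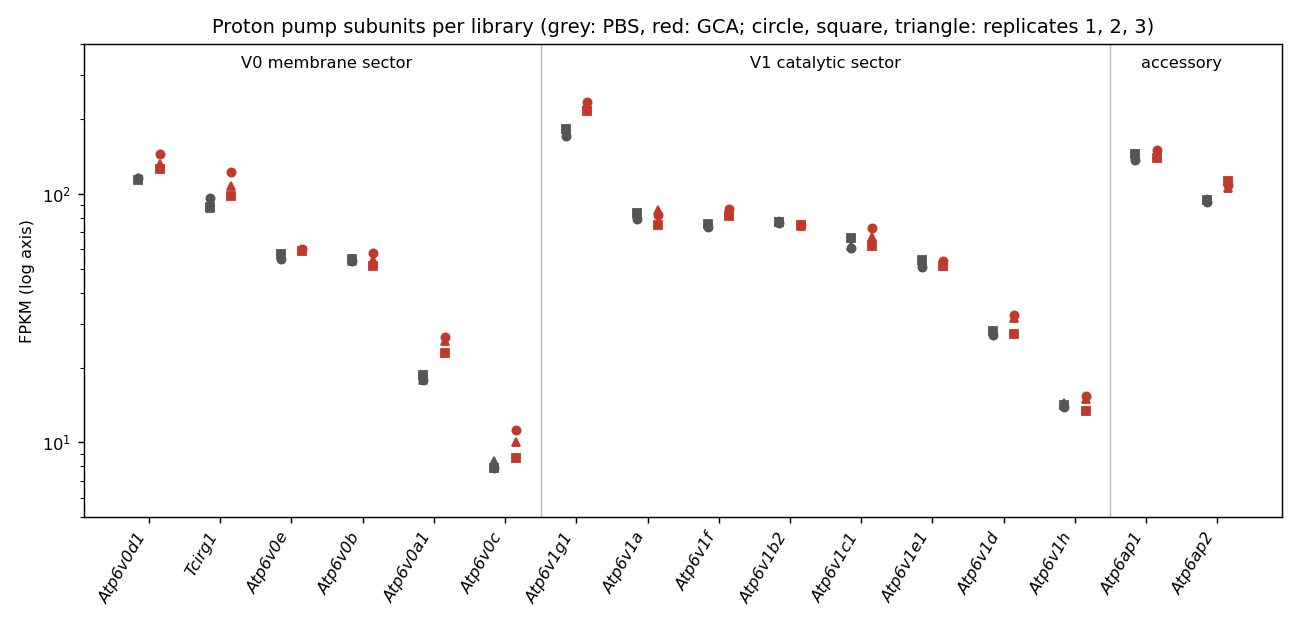
FPKM (log axis) of the 16 pump genes in each library, ordered by mean level within each sector. Levels span from about 8 FPKM for Atp6v0c to over 200 for Atp6v1g1, and the 3 GCA points of Atp6v0a1 and Atp6v1g1 stand clear of the PBS points.

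Levels of subunits of the 1 pump differed widely per length. Means over the 6 libraries were 203 FPKM for Atp6v1g1, 143 for Atp6ap1, 125 for Atp6v0d1, 101 for Atp6ap2 and 99.99 for Tcirg1, and fell to 21.5 for Atp6v0a1, 14.3 for Atp6v1h and 9.01 for Atp6v0c. Between these ends Atp6v1a at 81.5, Atp6v1f at 79.2 and Atp6v1b2 at 75.8 had overlapping values. The length used is all annotated exon bases of a gene, so genes with long rare exons read low. Among the alternative forms of subunit a, Tcirg1 made up 77.0%, 75.9% and 76.4% of the summed FPKM of Tcirg1, Atp6v0a1 and Atp6v0a2 in PBS and 77.3%, 75.2% and 75.4% in GCA. These shares overlapped (exact permutation test, two-sided, p = 0.6).

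The accessory subunits differed in whether they passed. Atp6ap2 (ENSMUSG00000031007, X chromosome, 12587801 to 12617049), also known as the prorenin receptor, which helps to assemble the pump, was at 92.9, 94.5 and 95.4 FPKM in PBS and 108.2, 112.7 and 104.9 in GCA. The control libraries lay within 2.52 FPKM and all treated libraries were above them (log2 fold change 0.20, SE 0.045, adjusted p = 0.0185, limma). Without PBS replicate 2, PBS replicate 3 or GCA replicate 1 the adjusted p was 0.0611, 0.0566 and 0.0599. Atp6ap1, the other accessory subunit, was at 136.6 to 145.1 FPKM in PBS and 139.4 to 149.3 in GCA and overlapped throughout (adjusted p = 0.786).

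GCA replicate 2 stood apart from the other treated libraries for the pump, though not for the pump alone. It was the lowest of the 3 GCA libraries for 14 of the 16 pump genes, all but Atp6ap2 and Atp6v1b2, where it was the highest. Over all 11984 tested genes it was the lowest for 5133 (42.8%) and the highest for 3546. Among 34 lysosomal genes with TFEB-type promoters, described below, it was the lowest for 23 and the highest for 4. Among 17 genes driven by the transcription factor ATF4, also described below, 15 fell. For these 17 it was the highest treated library for 12 and the lowest for 4. Taking each pump gene against its PBS mean, the median deviation was 0.20, 0.023 and 0.12 log2 units in GCA replicates 1, 2 and 3, and lay between −0.028 and 0.019 in the PBS libraries. Of the 16 macrophage markers GCA replicate 2 was the highest treated library for 9 and the lowest for 7. Of the 9 osteoclast markers it was the highest for 4 and the lowest for 3. The macrophage sum was 17069, 17527 and 16198 FPKM in GCA replicates 1 to 3, of which Lyz2 alone was 8870, 9691 and 8078. The osteoclast sum was 127.6, 152.0 and 120.1 FPKM, with Acp5 a large part. Without Lyz2 the macrophage sum, and without Acp5 the osteoclast sum, was lowest in GCA replicate 2. Cd68, a lysosomal membrane protein of macrophages, was lowest there among treated libraries, at 1028, 827 and 977 FPKM. Acp5, the acid phosphatase of osteoclasts and activated macrophages, was at 36.1, 75.5 and 32.4 FPKM in GCA replicates 1 to 3 against 29.9 to 32.1 in PBS, and Adgre1, which encodes the macrophage marker F4/80, was also highest there, at 256.1, 419.9 and 224.0 against 330.5 to 382.4. Their part in the pump values was not tested. Without GCA replicate 2, 13 genes of the group rose rather than 9, beside 1317 of all 11984 genes (11%) in that fit, with Atp6v0c (adjusted p = 0.0106), Tcirg1 (0.0177), Atp6v1d (0.0257) and Fnip2 (0.0329) added, all by limma.

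**Figure D4:**
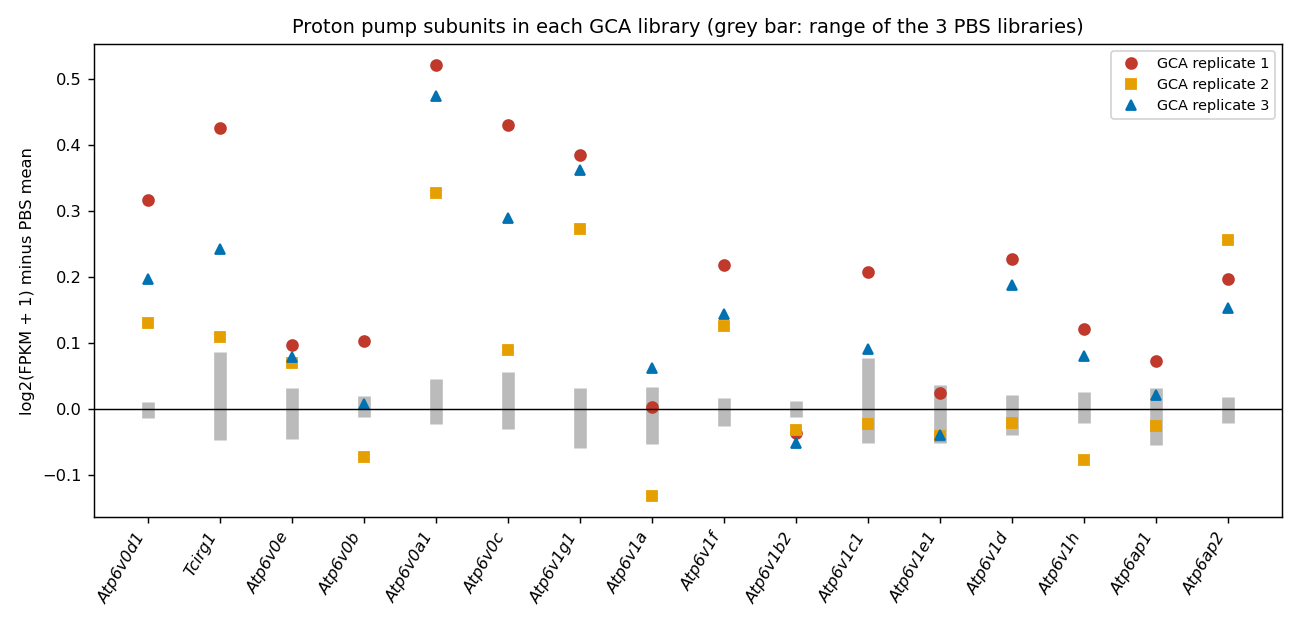
Deviation of each GCA library from the PBS mean in log2(FPKM + 1) for the 16 pump genes, with the range of the PBS libraries as a grey bar. GCA replicate 2 (squares) is the lowest treated library in 14 of 16 genes, and lies inside or below the PBS range for genes such as Atp6v1d, Atp6v1h and Atp6v1a.

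Of Ragulator, the 5-part scaffold, 1 gene rose and 4 did not pass. Lamtor1 (ENSMUSG00000030842, chromosome 7, 101905904 to 101926675) encodes the lipid-anchored subunit that ties the scaffold to the lysosome. It stood at 38.1, 44.4 and 41.9 FPKM in PBS and 51.6, 48.0 and 51.9 in GCA. The treated libraries were all above the controls, by 3.66 FPKM at the closest, and the log2 fold change was 0.28 (SE 0.064, adjusted p = 0.0204, limma). Without PBS replicate 3, GCA replicate 1 or GCA replicate 3 the adjusted p was 0.0574, 0.068 and 0.0631. Its exons share 600 bases with Lrrc51 on the opposite strand, which had a mean of 0.925 FPKM, and its copies Gm13077 and Gm5510 had 1.79 and 0.603 FPKM. Lamtor3 at 23.25 to 24.9 against 26.05, 25.2 and 27.7 FPKM and Lamtor5 at 51.8 to 54.6 against 56.8, 61.1 and 55.8 were higher in all treated libraries without passing (adjusted p = 0.152 and 0.158). Lamtor3 has a copy, Gm5900, at 0.940 FPKM. Lamtor2 and Lamtor4 overlapped between groups, at means of 47.0 and 31.4 FPKM over all libraries.

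The Rag GTPases work as pairs of RagA or RagB with RagC or RagD. In these cells nearly all of the first partner was Rraga, at 99.5% to 99.8% of the summed FPKM of Rraga and Rragb in every library (exact permutation p = 0.9), and most of the second was Rragc. Rragd (ENSMUSG00000028278, chromosome 4, 32983037 to 33022180), which encodes RagD, was at 4.36, 3.91 and 4.48 FPKM in PBS and 7.71, 5.498 and 7.62 in GCA. GCA replicate 2 was again the lowest treated library and still above every control. The ratio of means was 1.63 and the log2 fold change 0.59 (SE 0.116, adjusted p = 0.013, limma), with an adjusted p = 0.0515 without PBS replicate 2. Rragc stood at 62.7 to 66.4 FPKM in PBS and 60.3 to 73.1 in GCA and did not pass. The share of Rragd in the sum of Rragc and Rragd was therefore 6.16%, 5.86% and 6.65% in PBS and 9.54%, 8.36% and 10.4% in GCA.

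These shares did not overlap, and the exact two-sided permutation test gave p = 0.1, the smallest that 3 against 3 libraries allow (0.175 adjusted over the 7 shares computed). Rraga was at 51.2, 50.9 and 48.8 FPKM in PBS and 47.2, 43.2 and 45.1 in GCA, lower in all treated libraries (log2 fold change −0.15, SE 0.049, adjusted p = 0.0669, limma). It passed after quantile normalization (adjusted p = 0.0213) and after median centring (0.0466).

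FLCN with FNIP1 or FNIP2 makes RagC and RagD hydrolyse GTP, a step needed for mTORC1 to hold TFEB family factors. None of the 3 genes passed. Fnip2 was at 26.8, 24.1 and 25.5 FPKM in PBS and 29.5, 27.0 and 30.6 in GCA, without overlap (adjusted p = 0.0796, limma), while Fnip1 was at 17.0 to 17.8 and 15.9 to 17.7. Fnip1 made up 39.97%, 41.4% and 40.9% of their sum in PBS and 36.0%, 37.1% and 36.6% in GCA. The 2 ranges are separate by 2.92 points, with the smallest possible exact permutation p of 0.1 (0.175 adjusted). Flcn itself was at 20.2 to 22.4 and 21.1 to 25.2 FPKM.

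**Figure D5:**
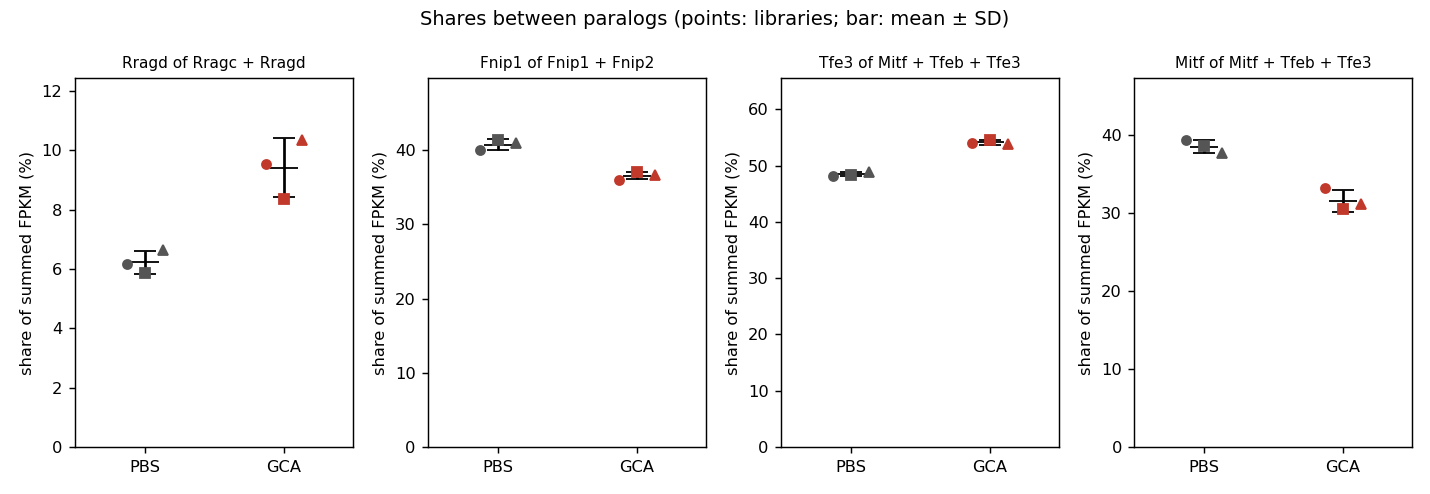
Share of 1 paralog in the summed FPKM of its family (percent, axes from 0) per library, with mean and SD. The Rragd and Tfe3 shares are higher and the Fnip1 and Mitf shares lower in all 3 GCA libraries than in any PBS library.

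The core of mTORC1 was low and did not pass. Mtor, the kinase, was at 4.87 to 5.06 FPKM in PBS and 5.10 to 5.42 in GCA. Rptor, the subunit that recognises substrates, was at 4.18, 3.89 and 4.05 FPKM in PBS and 4.63, 4.85 and 4.41 in GCA, without overlap (adjusted p = 0.102, limma). Mlst8, a stabilising subunit, was at 3.18 to 3.86 and 3.06 to 3.66 FPKM. Its exons share 997 bases with Bricd5 on the opposite strand, so its level is uncertain. Of the amino acid inputs, Slc38a9, the arginine sensor inside the lysosome, was at 1.68 to 1.83 and 1.92 to 2.16 FPKM (adjusted p = 0.194), beneath the 2.67 FPKM of Gm47827, which shares 182 of its exon bases, and Castor1, the arginine sensor of the cytosol, at 8.92 to 10.5 and 9.11 to 11.1.

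Among the genes around Rheb, the GTPase that switches mTORC1 on, only Ddit4 passed. Ddit4 (ENSMUSG00000020108, chromosome 10, 59949669 to 59951834), also called REDD1, is a stress-induced protein that restrains mTORC1 through the TSC complex. It stood at 61.7, 63.8 and 61.7 FPKM in PBS and 84.9, 112.9 and 101.4 in GCA. The controls were tight and the treated libraries spread, with the lowest 21.1 FPKM above the highest control. GCA replicate 2 was the highest library here, as it was for Atp6ap2. The ratio of means was 1.60 and the log2 fold change 0.66 (SE 0.094, adjusted p = 0.00385, limma), the largest in the group, and the call was kept under each of the 15 other fits. Rheb stood at 12.6 to 13.7 and 13.2 to 13.6 FPKM. The TSC subunits, which inhibit Rheb, overlapped between groups, with Tsc1 at means of 3.66 and 3.52 FPKM and Tsc2, whose exons share 693 bases with Pkd1 on the opposite strand, at 13.1 and 12.6.

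Ddit4 is also known as a target of ATF4, the transcription factor of amino acid stress, and the other genes of that kind moved the opposite way. In the list of 17 such genes, 15 fell, 1 rose (Ddit4) and Psat1 did not pass, beside 6.43% lower and 11.5% higher over all tested genes. The median log2 fold change of the 17 was −0.46. Atf4 itself went from 145.6 ± 6.54 to 110.7 ± 9.97 FPKM and Phgdh, of serine synthesis, from 33.6 ± 1.44 to 19.4 ± 2.65 (SD, n = 3 each). Slc7a5, a leucine importer, went from 11.2 ± 1.34 to 6.54 ± 0.64 FPKM, and Atf5 from 52.8 ± 1.95 to 28.7 ± 4.31. Chac1, which degrades glutathione, went from 5.72 ± 1.09 to 2.09 ± 0.51 FPKM. The ATF4-type letters TTGCATCA, searched on both strands, were in no window of the 36 genes with a promoter, Ddit4 among them. They were in 0.895% of all windows and 0.749% of tested genes. At so low a share their absence from 36 genes says little, and other forms of the site were not searched.

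Mcoln1 (ENSMUSG00000004567, chromosome 8, 3500457 to 3515232) encodes TRPML1, the lysosomal channel whose calcium release helps to free TFEB. It was at 9.27, 8.996 and 9.25 FPKM in PBS and 11.3, 10.6 and 10.6 in GCA. The treated libraries were all higher, by 1.32 FPKM at the closest, and the log2 fold change was 0.22 (SE 0.050, adjusted p = 0.0202, limma). Without PBS replicate 2, PBS replicate 3 or GCA replicate 1 the adjusted p was 0.0704, 0.0616 and 0.0724.

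The TFEB family split. Mitf (ENSMUSG00000035158, chromosome 6, 97807052 to 98021349), a factor of melanocytes, osteoclasts and macrophages, was at 7.59, 7.12 and 7.16 FPKM in PBS and 5.64, 5.59 and 5.37 in GCA. Both groups were tight and did not overlap, with a ratio of means of 0.759. The log2 fold change was −0.34 (SE 0.053, adjusted p = 0.0043, limma), and the call was kept under each of the 15 other fits. Tfe3 was at 8.94 to 9.32 and 9.20 to 10.0 FPKM and Tfeb at 2.41 to 2.57 and 2.19 to 2.77, and neither passed (adjusted p = 0.615 and 0.91). Tfe3 was the most abundant of the 3 per length. Its share of the family sum was 48.2%, 48.3% and 48.9% in PBS and 54.0%, 54.6% and 53.8% in GCA.

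The Mitf share was 39.3%, 38.5% and 37.6% in PBS and 33.1%, 30.4% and 31.1% in GCA. Each of the Tfe3 and Mitf shares was apart between groups, at the smallest exact permutation p of 0.1 (0.175 adjusted over the 7 shares), and the 3 shares of the family sum to a fixed total. The Tfeb share was 12.5% to 13.5% in PBS and 12.9% to 15.1% in GCA (exact permutation p = 0.3).

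Genes known as targets of this family were taken as a list of their own. Of 34 lysosomal genes with promoters of the TFEB type, 14 rose, 1 fell and 19 did not pass. Over all tested genes 11.5% were higher and 6.43% lower. The median log2 fold change of the 34 was 0.13. The lysosomal protein progranulin (Grn) went from 489 ± 8.18 to 698 ± 32.7 FPKM and Naglu, of heparan sulfate degradation, from 33.6 ± 1.54 to 52.4 ± 4.88 (SD, n = 3 each). Sqstm1, the autophagy receptor p62 and also an NRF2 target, fell from 229.0 ± 11.2 to 150.3 ± 5.50 FPKM. Their summed level was 8922 to 9086 FPKM in PBS and 10282 to 11602 in GCA. In the same libraries 9 of 16 macrophage markers rose, among them the lysosomal Cd68 from 614 ± 13.4 to 944 ± 105 FPKM, and 1 fell. The part of macrophage content in the lysosomal and pump values was not tested.

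Further genes of the pathway were taken as 3 lists, to be read against the 17.9% of all tested genes that passed in either direction. Of 22 further pump subunits and assembly factors, 14 were tested, 1 rose and 13 did not pass. The 1 was Atp6v0d2, the osteoclast and macrophage counterpart of Atp6v0d1, at 1.47, 1.72 and 1.94 FPKM in PBS and 3.73, 2.25 and 3.36 in GCA (log2 fold change 0.59, SE 0.142, adjusted p = 0.0279, limma). It remained far below Atp6v0d1 in every library. Of the osteoclast markers, Oscar, Calcr, Ocstamp and Dcstamp were below the filter, with means of 0.026 to 0.300 FPKM, and of 5 tested Nfatc1 and Atp6v0d2 rose. The tissue-restricted pump subunits Atp6v0a4, Atp6v1b1, Atp6v1c2 and Atp6v1e2 had means under 0.2 FPKM.

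Of 25 amino acid sensors and Rag regulators, 22 were tested, 1 rose, 2 fell and 19 did not pass. Sesn1, a sestrin that restrains mTORC1 through GATOR2, went from 18.7, 19.4 and 19.8 FPKM in PBS to 27.0, 27.6 and 27.5 in GCA (log2 fold change 0.49, SE 0.044, adjusted p = 0.000522, limma). Its relative Sesn2, the leucine sensor, fell from 21.6 ± 1.35 to 18.5 ± 0.83 FPKM (adjusted p = 0.0429), and Bmt2, which encodes the methionine-linked sensor SAMTOR, from 8.14 ± 0.43 to 6.35 ± 0.61 (adjusted p = 0.021). The tested subunits of GATOR1 and GATOR2, the brake on the Rags and its inhibitor, did not pass.

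Of 26 other mTOR components, inputs and substrates, 24 were tested, 2 rose, 4 fell and 18 did not pass. Akt1s1 (PRAS40), an inhibitor of the kinase, fell from 31.6 ± 0.52 to 26.7 ± 0.57 FPKM, and Deptor, another, from 9.18 ± 0.55 to 7.54 ± 0.37. Ddit4l, a relative of Ddit4, fell from 27.6 ± 1.32 to 23.7 ± 1.02 FPKM. Eif4ebp1, the translation repressor that mTORC1 switches off, fell from 45.3 ± 1.89 to 36.8 ± 0.85 FPKM. Lpin1, an mTORC1 substrate that represses sterol genes, rose from 5.67 ± 0.44 to 8.27 ± 0.76 FPKM, and Tbc1d7, the third TSC subunit, from 3.14 ± 0.088 to 3.79 ± 0.17. Adjusted p-values of these 6 genes ran from 0.00582 to 0.0456 (limma).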

How the data were processed

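The deposited files give 1 value per Ensembl gene for each library, with no unit in the headers. They were read as FPKM made by the authors, because 90.8% to 91.0% of nonzero values, times the exon length in GENCODE M21 (GRCm38), were whole fragments within 0.02. The builds mm9 and mm8 and the aligner Bowtie 0.12.2 come from the submitters' processing notes; the counting tool, annotation and strand setting are details not given in the sources used here. Of 27263 genes, 27204 matched GENCODE M21, the source of coordinates. Promoter windows are from RefSeq.

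The test was limma 3.58.1 (R 4.3.3) with trend and robust moderation on log2(FPKM + 1) over the 11984 genes that averaged 1 FPKM or more, with treatment as the only term. It was checked on simulated data with changes larger than most of those called here, so that check does not cover changes of the reported size. Shares between paralogs used an exact permutation test. Copies were sought with BLAST+ 2.17.0 at 95% identity over 300 bases. Tables and plots used Python 3.11.15, pandas 2.3.3 and matplotlib 3.10.9.

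The genes and lists were chosen with earlier results of these data known. Named genes are those past the threshold with values in every library, the others by range, and up to 4 called genes per further list, with a few further examples and the called mTOR genes added after their values were seen. One gene that the rule would name is not reported here. Alternatives were the replicate block, 2 other scalings, other filters, pseudocounts, variance models and thresholds, recovered fragments, and leaving out each library. No 2 libraries of a group agreed within sampling noise (mean chi-square per gene 5.82 to 22.4).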

Additional observations from a re-analysis of the deposited data

How the results depend on the processing

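The count of genes past the threshold over the whole table was 2151, 1075 with no filter on low values, 837 at an adjusted p of 0.01 and 1232 to 2088 on leaving out 1 library. Of the pump and mTORC1 genes 9 were higher, 3 with no filter (where 735 of all 27263 genes were higher) and 3 at an adjusted p of 0.01. With limma-voom on recovered fragments 14 of the group were higher, where 2666 genes passed in all and 13.5% were higher. On leaving out 1 library 4 to 13 were higher: 4 without PBS replicate 2, PBS replicate 3 or GCA replicate 1, and 6 without GCA replicate 3. In these fits, in that order, 892, 842, 935 and 941 of all 11984 genes were higher. The 1 lower became 2 after quantile normalization, median centring or an adjusted p of 0.1. Lower calls over all genes were 771 in the main fit, 1027 after quantile normalization and 927 after median centring. Calls over all genes were not counted by direction at an adjusted p of 0.1 or 0.01. Calls of Atp6v0a1, Atp6v1g1, Ddit4 and Mitf were kept in each of the 15 other fits at the same threshold, and no called gene changed direction in them. Higher calls were 64.2% of all calls, and 53.8% after quantile normalization, where the median log2 fold change of all genes was −0.017.

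Genes that did not pass changed sign as follows, on the log2 scale. After quantile normalization Atp6v0b was at −0.016, Rheb at −0.0060 and Tfeb at −0.0053, after median centring Atp6v0b at −0.00061 and Rheb at −0.00066, and with limma-voom Lamtor2 at 0.0025. On leaving out 1 library the ranges were −0.0048 to 0.047 for Atp6ap1, −0.033 to 0.055 for Atp6v0b, −0.065 to 0.032 for Atp6v1a, −0.055 to 0.047 for Lamtor2, −0.021 to 0.12 for Rragc, −0.019 to 0.034 for Rheb, −0.032 to 0.086 for Tfeb and −0.10 to 0.026 for Castor1. The Rraga share difference, −0.024 points, ranged from −0.097 to 0.067. The causes were not tested.

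With the replicate number as a block, 2094 genes passed in all, 1334 higher and 760 lower. Of the pump and mTORC1 genes 9 were higher and 1 lower, with Tcirg1 gained and Atp6v1f lost. Same-numbered libraries shared only a number: their deviations correlated at 0.082, 0.029 and 0.068, and each correlated best with its own number, a hint from the data and not the design. With 3 libraries a group, a missed threshold does not show equal levels.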
